A study of Mus musculus with 4 samples.

Results

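Genes of the DEAD and DEAH box helicase families were compared between pro-B cells of Tnpo3-deleted and control mice. Members were all gene symbols of the deposited count table that begin with Ddx or Dhx followed by a digit, without the Y-linked Ddx3y, which gave 53 of 24411 genes, 37 with a Ddx and 16 with a Dhx symbol. The mice with floxed Tnpo3 alleles, called KO, were Tnpo3fl/fl mb1Cre (mice 51 and 63), and the controls, called WT, were Tnpo3+/+ mb1Cre (mice 55 and 69). All were on the C57BL/6 strain, and no age is given. The mb1Cre allele, carried by KO and WT mice alike, expresses Cre recombinase from the Cd79a locus, which is active from early B-lineage cells onward. Bone marrow cells positive for B220, for CD43 and for HSA (heat-stable antigen, CD24) were sorted as pro-B cells, the stage at which immunoglobulin heavy chain genes are rearranged. Each library came from its own mouse, so n = 2 per genotype.

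DEAD and DEAH box proteins are ATPases named after the amino acids of a conserved motif in their ATP-binding core. They open short RNA duplexes or strip proteins from RNA, and act in splicing, ribosome assembly, mRNA export, translation, decay and the sensing of viral RNA. Several act at steps of the spliceosome. This machine also depends on the serine- and arginine-rich splicing factors that transportin 3, the product of Tnpo3, carries into the nucleus. Ddx26b is included by its symbol, but its current name in RefSeq is Ints6l, a relative of an Integrator subunit. The symbol Ddx39 is the older name of Ddx39a.

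Total counts were 40647384 and 30440627 in KO 51 and KO 63, and 32697489 and 26211372 in WT 55 and WT 69. Tnpo3 fell to 79.7 and 68.8 CPM (counts scaled to a common library size, in the usual counts-per-million unit) in KO 51 and KO 63, against 159 and 148 CPM in WT 55 and WT 69 (log2 fold change of -1.05 ± 0.14 SE, adjusted p of 0.0108 in edgeR). Across genes, log2 CPM correlated at 0.976 between the KO libraries and at 0.975 between the WT libraries, against 0.877 to 0.899 between genotypes. Markers of the labelled cell type were present in every library. The 10 B-lineage markers summed to 1674 to 2219 CPM in KO and 7898 to 8658 CPM in WT, and 8 of the 10 fell. Markers of other cells moved in the same libraries. The 10 dendritic cell markers summed to 9288 to 12590 CPM in KO and 1650 to 3425 CPM in WT, and 9 of the 10 rose. The WT sums lay largely in Spib, Ly6d and Irf8, at 1517, 609.5 and 606.9 CPM in WT 55 and 691.2, 280.4 and 317.9 CPM in WT 69. Spib was the marker that did not rise. Flt3 and Itgax were at 39.8 and 17.24 CPM in WT 55, and at 27.13 and 4.472 CPM in WT 69. The 8 natural killer (NK) markers summed to 739 CPM in KO 51 and 226 CPM in KO 63, against 27.6 to 32.7 CPM in WT, and 6 of the 8 rose. The 6 T cell markers summed to 36.8 to 75.6 CPM in KO and 14.2 to 32.1 CPM in WT, and 1 of the 6 rose. The 7 neutrophil markers summed to 49.6 to 199.9 CPM in KO and 3570 to 4574 CPM in WT, and all 7 fell. The 4 eosinophil and basophil markers summed to 0.730 to 2.23 CPM in KO and 127 to 260 CPM in WT, and the 5 erythroid markers to 1.64 to 3.42 CPM in KO and 49.5 to 56.2 CPM in WT, with all 4 and all 5 lower in KO. Epx and Prss34 were at 0 in KO 63. In these bulk libraries fewer cells of a type and less RNA per cell cannot be told apart, and the part that these shifts had in the helicase values was not tested.

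The family as a whole moved little. Of the 53 members, 52 passed the filter on low counts and were tested, and 1, Ddx4, was not tested, at 2 to 11 counts per library. By edgeR's quasi-likelihood test with Benjamini-Hochberg adjustment over all 13507 genes tested, 3 members rose (Ddx51, Ddx18 and Ddx43), 4 fell (Ddx58, Dhx40, Ddx54 and Ddx41) and 45 did not pass. These 7 are 13.5% of the members tested, beside 22.2% of all genes tested (11.3% higher and 10.9% lower). Among members with a mean of at least 10 CPM, 6 of 50 were called, beside 22.8% of all genes at that level. The median absolute log2 fold change was 0.21 over the members and 0.454 over all genes tested, or 0.355 over all genes with a mean of at least 10 CPM. A log2 fold change lay within 0.5 of 0 for 41 members and beyond 1 in either direction for 4. At an unadjusted p below 0.05 there were 17 members, and 37.8% of all genes tested. KO and WT libraries did not overlap for 31 of the 52 members (59.6%), beside 67.5% of all genes tested. Of the 36 Ddx genes tested, 3 rose and 3 fell, with a median log2 fold change of -0.0488, and of the 16 Dhx genes 1 fell, with a median of -0.191, beside -0.0205 over all genes tested.

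**Figure D1:**
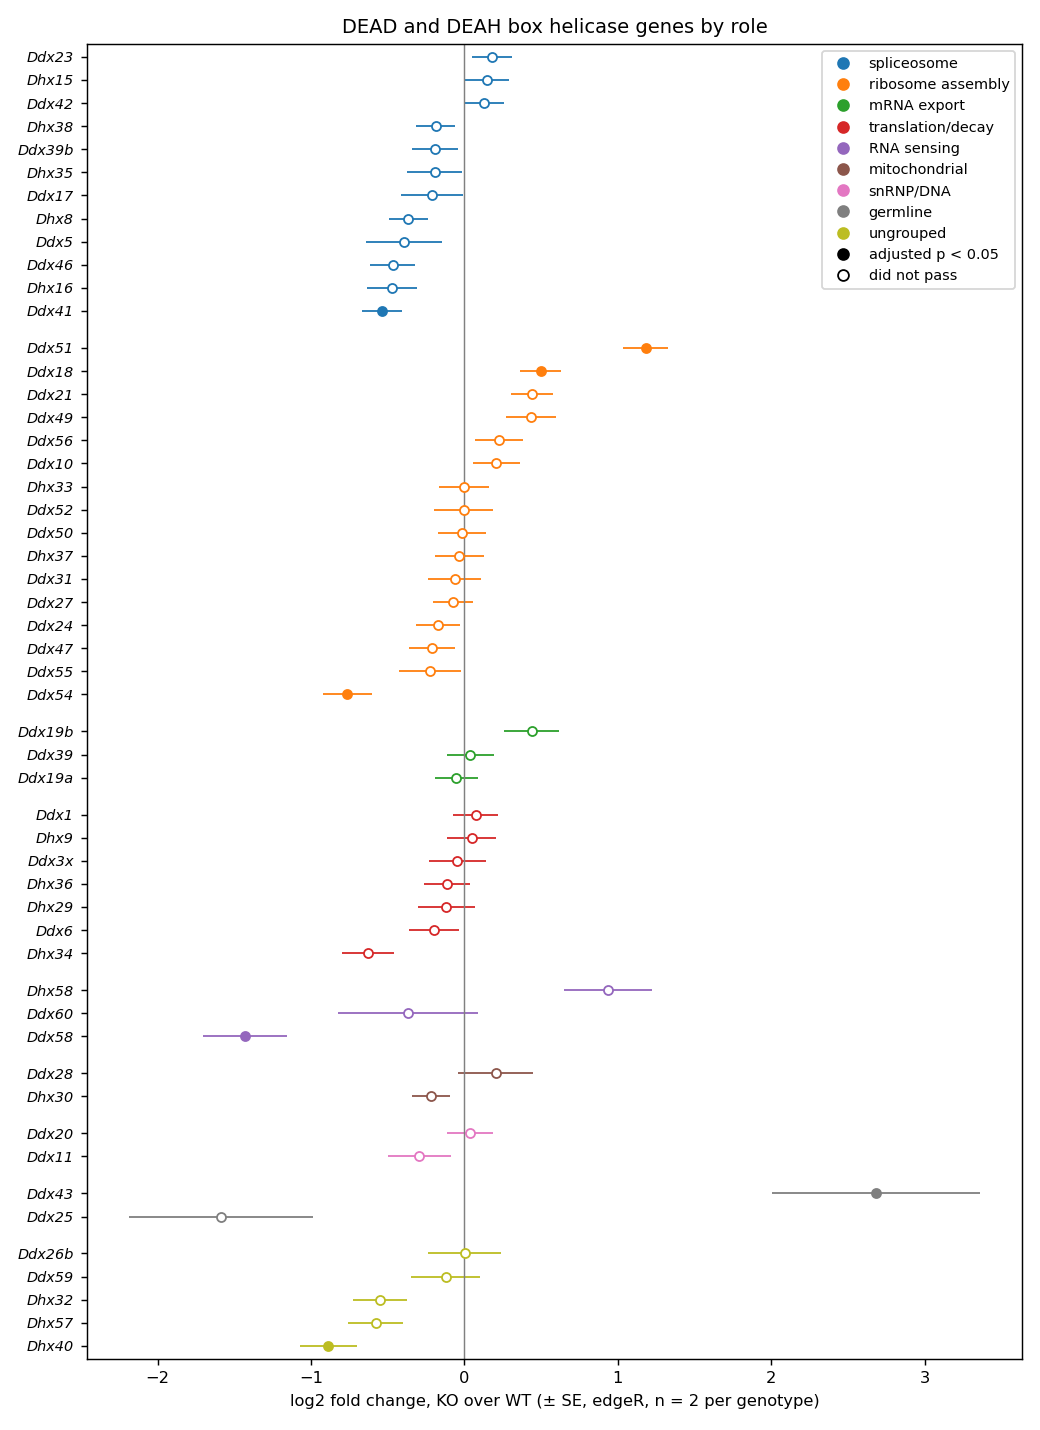
Log2 fold change of KO over WT with its SE (horizontal axis) for the 52 members tested, grouped by role, with filled points for an adjusted p below 0.05 in edgeR. Most points lie within 0.5 of 0, while Ddx43 at 2.68 and Ddx51 at 1.18 lie farthest to the right and Ddx25 at -1.59 and Ddx58 at -1.43 farthest to the left.

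The upstream sequence of 3 members is shown, and its part in their values was not tested. For Ddx51 it is the window that holds the start of its divergent neighbour Noc4l, which also rose, and for Ddx58 and Ddx60 it allows the upstream regions of a pair of RNA sensors with different values to be set side by side. Each is the 250 bases before the annotated start, written 5′ to 3′ on the strand of the gene, from RefSeq's GRCm38.p6. The Ddx51 window is chr5:110653201-110653450 on the plus strand, the Ddx58 window chr4:40239826-40240075 on the minus strand and the Ddx60 window chr8:61927837-61928086 on the plus strand. Capitals mark matches to the motifs searched on both strands.
Ddx51: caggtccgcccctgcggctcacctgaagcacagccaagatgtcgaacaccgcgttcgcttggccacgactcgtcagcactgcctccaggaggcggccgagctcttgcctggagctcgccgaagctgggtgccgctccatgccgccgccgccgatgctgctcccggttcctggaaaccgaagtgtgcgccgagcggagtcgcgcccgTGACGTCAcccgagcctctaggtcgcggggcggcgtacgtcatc
Ddx58: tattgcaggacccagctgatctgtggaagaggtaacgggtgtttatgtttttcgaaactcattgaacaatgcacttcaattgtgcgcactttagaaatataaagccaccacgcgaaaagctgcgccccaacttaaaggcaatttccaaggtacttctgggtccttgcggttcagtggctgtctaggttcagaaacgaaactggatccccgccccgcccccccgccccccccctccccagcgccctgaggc
Ddx60: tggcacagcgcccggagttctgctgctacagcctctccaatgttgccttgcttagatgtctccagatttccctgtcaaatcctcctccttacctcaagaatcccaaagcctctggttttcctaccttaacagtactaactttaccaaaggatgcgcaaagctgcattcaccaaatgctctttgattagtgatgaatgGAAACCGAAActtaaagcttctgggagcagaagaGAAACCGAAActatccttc
The motifs were TGACGTCA (cAMP response element), GAAA followed by any 2 bases and GAAA again (core of the interferon-stimulated response element) and CACGTG (E-box), chosen after upstream sequences of members had been read. The cAMP, interferon and E-box motifs occur in 1.55%, 2.98% and 6.02% of the 32851 promoter windows of the same length. A total of 47 members had a window. The cAMP response element was found upstream of Ddx51, Ddx19a, Ddx49 and Dhx36, the interferon element upstream of Ddx60 and Ddx49, and the E-box upstream of Ddx4, Ddx42, Ddx5, Dhx33, Dhx35 and Dhx40. These are matches of letters and not measured binding sites.

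Of 16 helicases of ribosome assembly, 2 rose, 1 fell and 13 did not pass, beside 22.2% of all genes tested that were called. The median log2 fold change of the 16 was -0.0112. Ddx51, a nucleolar helicase of large-subunit assembly (chr5:110653451-110660496), was at 92.2 and 106 CPM in KO 51 and KO 63, and at 45.4 and 41.9 CPM in WT 55 and WT 69. Each KO library was above each WT library by more than the spread within either genotype. In edgeR it had a log2 fold change of 1.18 ± 0.15 (SE; adjusted p of 0.00904), and it passed under all 12 alternatives tried. Ddx18, another nucleolar helicase, was at 80.9 and 82.1 CPM in KO, and at 55.6 and 59.9 CPM in WT. The groups did not overlap, and edgeR gave 0.50 ± 0.13 on the log2 scale and an adjusted p of 0.04995, just under the threshold of 0.05. Leaving out WT 55, WT 69, KO 51 or KO 63 gave adjusted p-values of 0.103, 0.0539, 0.217 and 0.263 for Ddx18. Ddx54, whose product also acts in the nucleolus, was at 161 and 142 CPM in KO, and at 280 and 234 CPM in WT. It fell, with all KO values below all WT values and a log2 fold change of -0.76 ± 0.16 (adjusted p of 0.0277). Without WT 55, KO 51 or KO 63 its adjusted p was 0.0501, 0.0858 and 0.163.

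Of the ribosome helicases that did not pass, Ddx21 and Ddx49 came closest. Ddx21, which links rRNA transcription with rRNA processing, was at 316 and 323 CPM in KO and 245 and 225 CPM in WT, with a log2 fold change of 0.44 ± 0.14 and an adjusted p of 0.0761. Its paralog Ddx50 was at 85.7 and 104 CPM in KO and 102 and 89.6 CPM in WT. Per kb of merged exon, the level of Ddx21 was 7.20 and 6.10 times that of Ddx50 in KO 51 and KO 63, and 4.71 and 4.92 times in WT 55 and WT 69. Ddx49 had a log2 fold change of 0.43 ± 0.16 (adjusted p of 0.111), and 29.9% of its merged exon bases overlap exons of Homer3 on the opposite strand. Ddx10 and Ddx56 were at 0.21 ± 0.15 and 0.23 ± 0.16, and the other 8 that did not pass were no farther from 0 than -0.22.

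Some members share a start region with another gene. For 12 of the 53 members, a gene of the count table on the opposite strand starts within 1000 bases. All 12 neighbours were tested, and 2 of them, Noc4l and Cope, passed, beside 22.2% of all genes tested. Noc4l, which encodes a nucleolar protein of small-subunit assembly, starts 34 bases from Ddx51. It was at 88.8 and 78.6 CPM in KO 51 and KO 63, and at 48.0 and 53.4 CPM in WT 55 and WT 69. It rose, with a log2 fold change of 0.72 ± 0.15 (adjusted p of 0.0264), and Ddx51 and Noc4l were thus both higher in KO. Most of the printed Ddx51 window, the capitalised match included, lies within Noc4l. Ddx51 and Noc4l share no merged exon bases in GENCODE M21. Cope, a coat protein gene of Golgi vesicles, starts 29 bases from Ddx49 and was at 0.57 ± 0.12 (adjusted p of 0.0300). Ddx54, which fell, has Rita1 as its divergent neighbour at 150 bases, and Rita1 was at -0.25 and did not pass (adjusted p of 0.599).

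Of 12 spliceosomal helicases, 1, Ddx41, fell and 11 did not pass, beside 10.9% of all genes tested that fell. At an unadjusted p below 0.05 there were 4 of 12, beside 37.8% of all genes tested. The median log2 fold change of the 12 was -0.203, beside -0.0205 over all genes tested, with 9 values below and 3 above 0. Libraries of the genotypes did not overlap for any of the 12, 9 with KO below WT and 3 with KO above, beside 67.5% of all genes tested without overlap. Ddx41, a helicase found in the catalytic spliceosome that has also been described as a sensor of cytosolic DNA, was at 99.6 and 89.0 CPM in KO 51 and KO 63, and at 132 and 141 CPM in WT 55 and WT 69. The groups did not overlap, and edgeR gave -0.54 ± 0.13 on the log2 scale (adjusted p of 0.0411). Leaving out WT 55, WT 69, KO 51 or KO 63 gave adjusted p-values of 0.0591, 0.0754, 0.137 and 0.275, and without a filter on low counts it was 0.0514.

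The helicases that drive the successive steps of splicing did not pass in the main test. Ddx46, which acts when the branch site is recognised, was at 199.5 and 211 CPM in KO and 303 and 264 CPM in WT, with a log2 fold change of -0.47 ± 0.15 (adjusted p of 0.0739). Dhx16, which makes the spliceosome catalytically active, was at 102 and 99.95 CPM in KO and 157 and 123 CPM in WT (-0.47 ± 0.16, adjusted p of 0.0928). Dhx16 passed under 1 of the 12 alternatives, over which its log2 fold change ranged from -0.64, without WT 69, to -0.25. Dhx8, which releases the spliced mRNA, was at -0.37 ± 0.13 (adjusted p of 0.0973), and Dhx38, which acts before exon ligation, at -0.19 ± 0.13 (adjusted p of 0.338). Ddx23, which helps to hand over the upstream splice site, Dhx15, which takes the spent spliceosome apart, and Ddx42, a partner of the branch-site machinery, were at 0.18 ± 0.13, 0.15 ± 0.14 and 0.13 ± 0.13. Dhx35, another spliceosomal helicase, was at -0.19 ± 0.18.

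Among 17 cofactors of these helicases and of the spliceosome, 1 fell and 16 did not pass, beside 10.9% of all genes tested that fell, with a median of -0.184. The 1 was Gpkow, which encodes a G-patch partner of Dhx16, at 55.3 and 54.5 CPM in KO and 87.8 and 77.4 CPM in WT. It had -0.59 ± 0.14 on the log2 scale (adjusted p of 0.0372), with all KO values below all WT values. Of 15 RNA helicase and related genes outside the Ddx and Dhx symbols, 2 rose and 13 did not pass. Of all genes tested, 11.3% rose. Eif4a1, the DEAD box subunit of the cap-binding translation factor, was at 842 and 802 CPM in KO and 482 and 560 CPM in WT (0.66 ± 0.17, adjusted p of 0.0487). The other of the 2 that rose was Ifih1, given with the sensors.

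Ddx5 and Ddx17, close paralogs that act in transcription and alternative splicing, had the highest levels per length. Levels are compared here as CPM per kb of merged GENCODE exon, which counts rarely used exons in full. Ddx5 was at 308 and 372 CPM per kb in KO 51 and KO 63, and at 513 and 380 CPM per kb in WT 55 and WT 69. Ddx17 followed at 105 and 134 CPM per kb in KO and 141 and 135 CPM per kb in WT, below every Ddx5 value. The difference between genotypes was within the spread between WT mice for Ddx5, with a log2 fold change of -0.39 ± 0.25 (adjusted p of 0.299), and Ddx17 was at -0.21 ± 0.20 (adjusted p of 0.486). Without WT 55 the log2 fold change of Ddx5 was -0.13. Together they made up 27.4% and 31.6% of the family's summed level per length in KO 51 and KO 63, and 35.8% and 31.3% in WT 55 and WT 69. The family held 0.849% and 0.905% of all counts in KO 51 and KO 63, and 1.05% and 0.955% in WT 55 and WT 69.

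**Figure D2:**
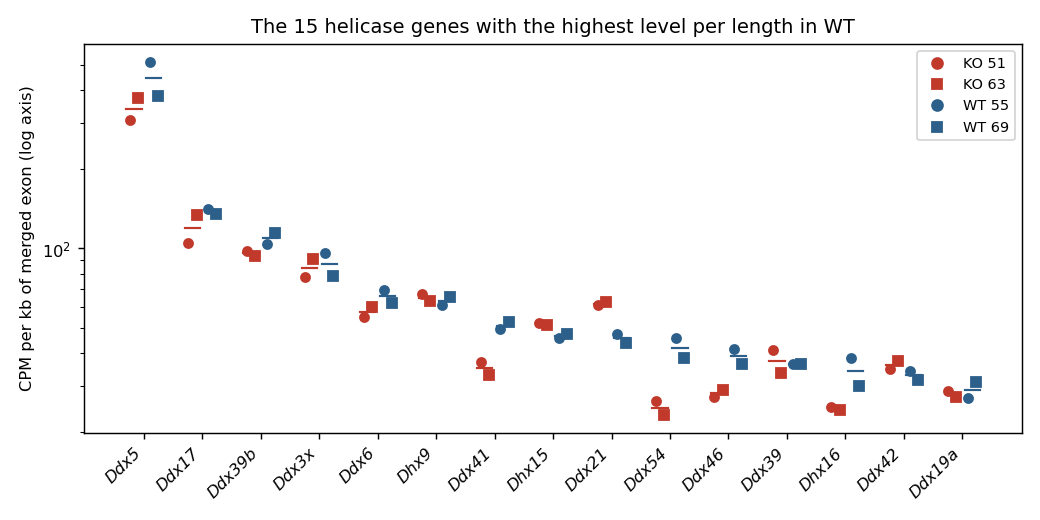
Level per length (CPM per kb of merged exon, log axis) of the 15 members highest in WT, with a point for each library and a short bar for each genotype mean. Ddx5 stands above all others, and the values of Ddx17, Ddx39b and Ddx3x lie close to each other from about rank 2 to 4 in KO and in WT.

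Next in the order of mean levels per length were Ddx39b and Ddx3x, at ranks 3 and 4 in KO and in WT. Dhx9 ranked 5 in KO and 6 in WT, and Ddx6 ranked 7 in KO and 5 in WT. Ddx21 ranked 6 in KO and 9 in WT. Ddx39b, which acts in branch-site recognition and in mRNA export, was at 98.1 and 93.8 CPM per kb in KO and 104 and 115 CPM per kb in WT. Ddx3x was at 77.7 and 91.3 CPM per kb in KO and 95.8 and 78.6 CPM per kb in WT. The gap between the means of Ddx39b and Ddx3x was smaller than the difference between the Ddx3x libraries in KO and larger than it in WT. Ddx6, a repressor of translation in P-bodies, was at 55.0 and 59.7 CPM per kb in KO and 69.7 and 61.8 CPM per kb in WT. Dhx9, a helicase of nuclear double-stranded RNA, was at 67.0 and 63.1 CPM per kb in KO and 60.7 and 65.2 CPM per kb in WT, so that Dhx9 was above Ddx6 in each KO library while their values overlapped in WT. The log2 fold changes of Ddx39b, Ddx6 and Dhx9 were -0.19 ± 0.15, -0.20 ± 0.16 and 0.05 ± 0.16, and they did not pass. The lowest levels were those of Ddx4, Ddx25 and Ddx43, each below 1 CPM per kb in every library.

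In edgeR 0 of 3 mRNA export helicases passed, also at an unadjusted p below 0.05, and no other tool called them. Of all genes tested, 22.2% passed and 37.8% had an unadjusted p below 0.05. Ddx39, the paralog of Ddx39b, was at 212 and 173 CPM in KO and 187 and 188 CPM in WT. Per kb, its level was 0.419 and 0.357 times that of Ddx39b in KO 51 and KO 63, and 0.349 and 0.317 times in WT 55 and WT 69. Of its merged exon bases 17.4% overlap Adgre5 on the opposite strand, and Adgre5 fell (-0.85 ± 0.18, adjusted p of 0.0273). Ddx19a and Ddx19b are neighbouring genes for a helicase that strips proteins from mRNA at the nuclear pore. Ddx19b was at 40.5 and 49.0 CPM in KO 51 and KO 63, and at 34.2 and 31.8 CPM in WT 55 and WT 69. All KO values were above all WT values, but the log2 fold change of 0.44 ± 0.18 did not pass (adjusted p of 0.137). Ddx19a was at -0.05 ± 0.14, and its level per kb was 4.79 and 3.73 times that of Ddx19b in KO 51 and KO 63, against 5.30 and 6.57 times in WT 55 and WT 69. Reads may be shared between such close paralogs, so these values are uncertain.

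Of 3 helicase genes of RNA sensing, Ddx58 fell and 2 did not pass, beside 10.9% of all genes tested that fell. Ddx58 encodes RIG-I, the sensor of short viral RNA with a triphosphate end. Ddx58 was at 46.8 and 30.4 CPM in KO 51 and KO 63, and at 122 and 86.6 CPM in WT 55 and WT 69. It fell, with KO values below all WT values, a log2 fold change of -1.43 ± 0.27 and an adjusted p of 0.0228 in edgeR. Without KO 63 it was at -1.15 (adjusted p of 0.0713), while the other 11 alternatives kept the call. Ifih1, which encodes MDA5, the sensor of long double-stranded RNA, was at 34.6 and 33.0 CPM in KO and 9.87 and 14.7 CPM in WT. It rose, with a log2 fold change of 1.46 ± 0.25 (adjusted p of 0.0176), so the genes of these related sensors changed in opposite directions.

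The other sensor helicases did not pass. Dhx58, which encodes LGP2, a regulator of RIG-I and MDA5, was at 68.4 and 63.8 CPM in KO and 25.0 and 44.0 CPM in WT. The groups did not overlap, and edgeR gave 0.94 ± 0.29 on the log2 scale (adjusted p of 0.0709). Dhx58 varied between the WT mice, and without WT 69 it was at 1.40 on the log2 scale (adjusted p of 0.00232), against 0.62 (adjusted p of 0.0574) without WT 55. It passed with DESeq2 (0.0152), with limma-voom (0.045), without a filter (0.0276) and in the fit with a term for sex (0.0161), by adjusted p. Ddx60, an interferon-induced antiviral gene, was at 15.3 and 7.50 CPM in KO and 10.5 and 19.1 CPM in WT, with overlapping groups and a log2 fold change of -0.37 ± 0.46. The printed Ddx60 window holds the interferon motif at 2 places, and the Ddx58 window has no match to the 3 motifs as written. The Ddx58 window does hold gaaacgaaa, which a pattern with exactly 2 bases between the GAAA repeats does not count.

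Of 13 genes that act with these sensors or downstream of them, 5 rose and 8 did not pass, beside 11.3% of all genes tested that rose. Their median log2 fold change was 0.283, beside -0.0205 over all genes tested. Among those that rose were the interferon response genes Irf7, Stat2, Irf9 and Isg15. Irf7, a transcription factor that drives type I interferon genes and is high in plasmacytoid dendritic cells, was at 599 and 433 CPM in KO, and at 43.9 and 44.5 CPM in WT. It rose by 3.54 ± 0.21 on the log2 scale (adjusted p of 0.00432). Stat2, which carries the interferon receptor signal, was at 1.64 ± 0.27, Irf9, its partner, at 0.58 ± 0.12 and Isg15, a ubiquitin-like modifier, at 2.03 ± 0.33. Dendritic cell markers rose in the same libraries (9 of 10, 9288 to 12590 CPM in KO and 1650 to 3425 CPM in WT). Spib, which did not rise, was the largest part of the WT sums. Neutrophil markers fell (7 of 7, 49.6 to 199.9 CPM in KO and 3570 to 4574 CPM in WT). The part of these dendritic and neutrophil shifts in the sensor values was not tested.

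**Figure D3:**
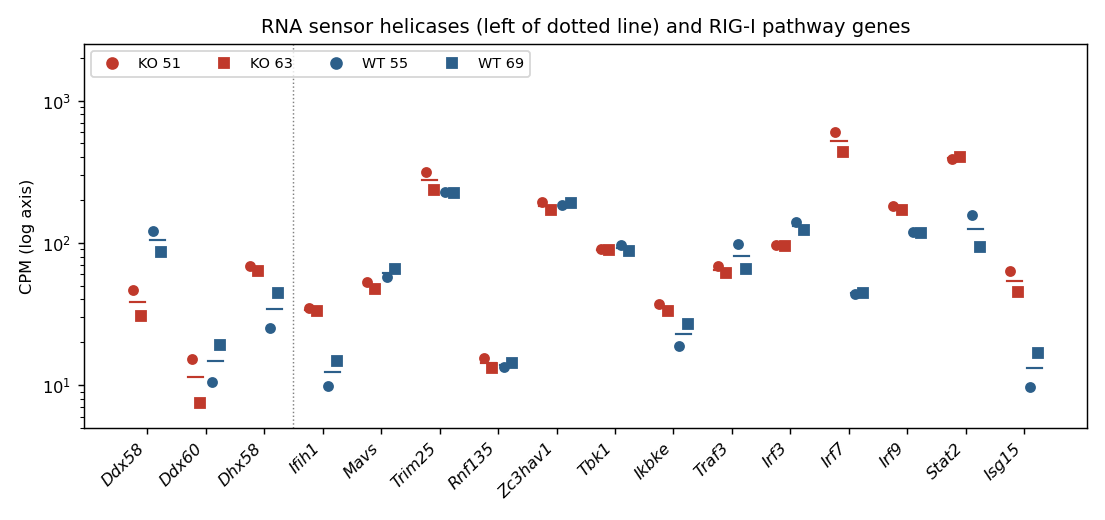
CPM on a log axis in each library for Ddx58, Ddx60 and Dhx58 (left of the dotted line) and for Ifih1 and 12 RIG-I pathway genes (right), with short bars for genotype means. Ddx58 is lower in KO (30.4 to 46.8 CPM) than in WT (86.6 to 122 CPM), while Ifih1, Irf7, Stat2, Irf9 and Isg15 are higher in KO.

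The group of translation and decay held 7 members, Ddx1, Ddx3x, Ddx6, Dhx9, Dhx29, Dhx34 and Dhx36. It is a loose group, since Dhx9 is described above by its role on nuclear double-stranded RNA. None passed in the main test, beside 22.2% of all genes tested that did, and the median log2 fold change was -0.112. At an unadjusted p below 0.05 there was 1, Dhx34, beside 37.8% of all genes tested. Dhx34, a factor of nonsense-mediated decay, was at 33.7 and 31.6 CPM in KO 51 and KO 63, and at 54.4 and 46.6 CPM in WT 55 and WT 69. The groups did not overlap, and edgeR gave -0.63 ± 0.17 on the log2 scale (adjusted p of 0.0507). Dhx34 passed under 5 of the 12 alternatives, among them limma-voom (0.0434), DESeq2 (0.025), scaling to total counts (0.0444) and a term for sex (0.0294), by adjusted p. Over the alternatives its log2 fold change ranged from -0.74 to -0.48. Of the helicases of mitochondrial ribosome assembly, Dhx30 was at -0.22 ± 0.13 and Ddx28 at 0.20 ± 0.25. Ddx20, a partner of the SMN protein in snRNP assembly, was at 46.8 and 46.6 CPM in KO and 43.3 and 47.5 CPM in WT, and Ddx11, a DNA helicase of sister chromatid cohesion, was at -0.29 ± 0.20.

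Of 5 members placed in no role group, Dhx40 fell, beside 10.9% of all genes tested that fell. Little is known of the function of this DEAH box gene (chr11:86768846-86807746). Dhx40 was at 60.6 and 63.2 CPM in KO 51 and KO 63, and at 132 and 96.4 CPM in WT 55 and WT 69. The KO values lay close together and below both WT values, with a log2 fold change of -0.89 ± 0.19 and an adjusted p of 0.0283. Without KO 51 it was at -0.86 (adjusted p of 0.112), and without KO 63 at -0.91 (adjusted p of 0.111). Dhx57 and Dhx32 were at -0.58 ± 0.18 and -0.55 ± 0.17 (adjusted p-values of 0.0765 and 0.0777). Dhx57 passed under 2 of the 12 alternatives, over which its log2 fold change ranged from -0.78, without WT 69, to -0.32.

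Germline helicases were near the limit of detection. Ddx43, a helicase of the male germline that is also found in some tumours, had 81 and 30 counts in KO 51 and KO 63, and 10 and 4 counts in WT 55 and WT 69. In CPM these were 2.01 and 0.996 in KO, and 0.306 and 0.150 in WT. It rose, with all KO values above all WT values, a log2 fold change of 2.68 ± 0.68 and an adjusted p of 0.0440 in edgeR. Leaving out WT 55, WT 69, KO 51 or KO 63 gave log2 fold changes of 3.33, 2.29, 2.08 and 3.10, with adjusted p-values of 0.0674, 0.118, 0.189 and 0.0664, and limma-voom gave 0.0534. The NK marker sum was also higher in KO 51 than in KO 63 (739 and 226 CPM, against 27.6 to 32.7 CPM in WT). Klrd1 went the other way, at 114 CPM in KO 51 and 155 CPM in KO 63. The B-lineage, T cell, neutrophil, and eosinophil and basophil sums were higher in KO 51 too, while the dendritic and erythroid sums were lower. The part of any of these in the Ddx43 value was not tested. Ddx25, a testis helicase, had 14 and 8 counts in KO and 22 and 32 counts in WT, and did not pass (adjusted p of 0.117). Ddx4, the germ cell marker also known as Vasa, had 11 and 2 counts in KO and 6 and 11 counts in WT.

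**Figure D4:**
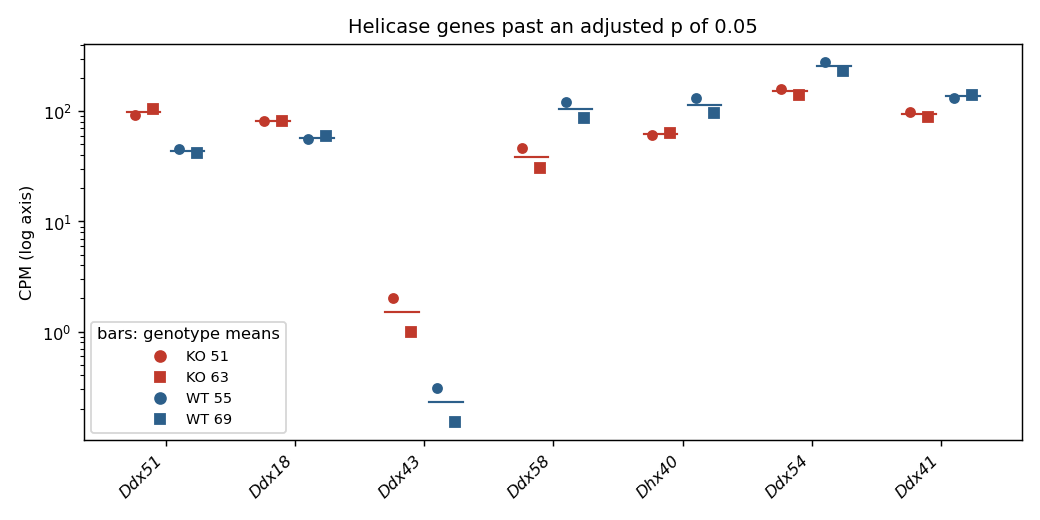
CPM on a log axis in each library for the 7 members with an adjusted p below 0.05, with short bars for genotype means. The KO points lie above the WT points for Ddx51, Ddx18 and Ddx43 and below them for Ddx58, Dhx40, Ddx54 and Ddx41, and Ddx43 lies at about 2 CPM or less.

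The 2 X-linked members were higher in the libraries high in Xist than in the others. Xist, the RNA of the inactive X chromosome, was at 0.669 and 1710 CPM in KO 51 and KO 63, and at 1190 and 0.376 CPM in WT 55 and WT 69, and the Y-linked Ddx3y was at 97.4 and 0.0332 CPM in KO 51 and KO 63, and at 0.0611 and 120 CPM in WT 55 and WT 69. Each genotype thus held 1 library with Xist and 1 with Ddx3y, which the labels do not state. Ddx3x, a translation helicase known to be expressed from the inactive X chromosome as well, was at 410 and 482 CPM in KO 51 and KO 63, and at 506 and 415 CPM in WT 55 and WT 69. Ddx26b was at 66.1 and 96.9 CPM in KO 51 and KO 63, and at 92.4 and 70.2 CPM in WT 55 and WT 69. For each of the pair, KO 63 and WT 55, the libraries high in Xist, were above KO 51 and WT 69. Of the 50 autosomal members tested, 7 had this order, beside 10.7% of all genes tested. The log2 fold changes of KO over WT were -0.05 ± 0.18 for Ddx3x and 0.00 ± 0.24 for Ddx26b. With 1 library of each kind per genotype this order was not tested.

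**Figure D5:**
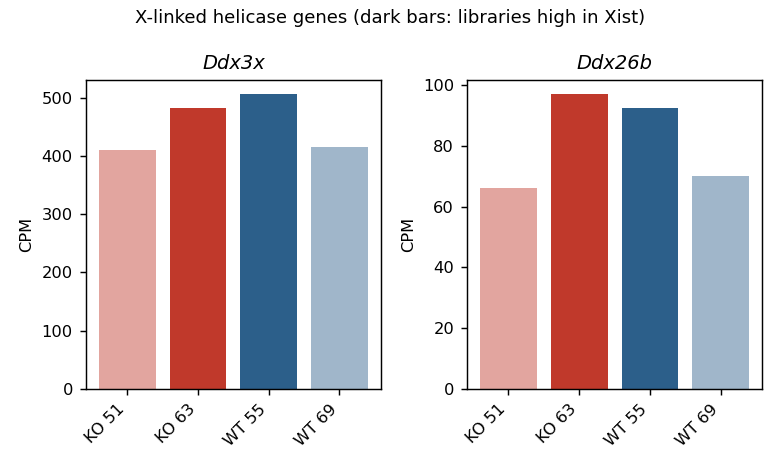
CPM in each library for Ddx3x and Ddx26b, with dark bars for the libraries high in Xist (KO 63 and WT 55) and pale bars for the others (KO 51 and WT 69). In each genotype the dark bar is the higher one, at 482 and 506 CPM against 410 and 415 CPM for Ddx3x.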

How the data were processed

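RNA of sorted pro-B cells was sequenced in 4 libraries. Per the labels' protocols, a low-input kit was used and no molecular identifiers are described. Per the submitters' processing notes, the tools were STAR 2.7.4a, SAMtools 1.10, deepTools 3.3.2, Subread 2.0.0, featureCounts and DESeq2, and the builds GRCm38 and mm10. Which annotation was used, whether strand was counted and how multiply aligned reads were handled is not given in the sources used here, so values of overlapping genes and close paralogs are uncertain. Exons of 10 members overlap another gene of the table, 3 of them over more than 5% of their bases.

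Raw counts of 24411 genes were deposited by the authors and used for the main test. The authors' deposited table of normalized signal has 13021 rows and holds each count times 1 factor per library (0.816 and 1.10 for KO 51 and KO 63, 1.01 and 1.22 for WT 55 and WT 69), and its 20 rows with dates for symbols were left out. The test was edgeR 4.0.16 in R 4.3.3: filterByExpr (minimum count 10, minimum total 15), TMM scaling, quasi-likelihood F test with genotype alone, Benjamini-Hochberg threshold 0.05. Standard errors were derived from the F statistic. CPM uses TMM-scaled library sizes, and 3 counts are 0.0743 to 0.113 CPM in a library. The biological coefficient of variation was 0.251. Replicates differed beyond sampling noise, with a chi-square per gene of 61 between KO and 84.5 between WT libraries. The procedure was also run on simulated counts with seeded changes, and the share it recovered is not reported here.

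The members, role groups, other lists and tests were chosen with earlier results of these data known. By rule, full values went to members that passed, paralog pairs and sensors, and companion genes were named where they passed. Members near the threshold, and Noc4l, Cope, Rita1, Homer3 and Adgre5 for their position, were added after their values were seen. Of the RIG-I pathway genes that rose, 1 is not reported here. Coordinates, merged exon lengths and overlaps are from GENCODE M21 (GRCm38).

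Alternatives in edgeR were DESeq2 size factors, total counts without TMM, no filter, a stricter filter (at least 1 CPM in 2 libraries, mean count 50), a term for sex read from Xist, and each library left out. Other tools were DESeq2 1.42.0, limma-voom (limma 3.58.1), and limma on log2 of the authors' deposited normalized signal plus 1.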

Additional observations from a re-analysis of the deposited data

How the results depend on the processing

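Ddx51 passed under all 12 alternatives, Ddx58 under 11, Dhx40 under 10, Ddx54 under 9, Ddx41 under 7, Ddx18 under 6 of 12 and Ddx43 under 6 of the 11 that tested it. With a library left out, the number of genes higher in KO ranged from 747 to 1649 (1524 with all libraries) and of genes lower from 530 to 1580 (1468). Members higher numbered 1 to 2 (3 with all libraries) and members lower 0 to 6 (4). The count of 0 came from edgeR without KO 63, where 1 library stands for KO, the counts over all genes fall too and the lone library is assumed to vary like the others. There 3 members were lower at an unadjusted p below 0.05, and with all libraries DESeq2 and limma-voom each called 5 members lower. A term for the sex of each mouse, which leaves 1 residual degree of freedom, gave 5 members higher and 7 lower, and the added ones were Dhx58 and Ddx21 (higher) and Dhx34, Ddx46 and Dhx57 (lower). No paired analysis was possible because the labels pair no mice and no mouse number occurs in more than 1 genotype. The term for sex, read from the data, sets KO 63 beside WT 55 and KO 51 beside WT 69.

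Among the members described by their own fold change, signs changed for 7 that had not passed. Ddx26b was at -0.0198 with total-count scaling, -0.0182 with limma-voom and -0.00901 with the sex block, and Ddx50 at 0.0163 without a filter and 0.00178 with the stricter one. With a library left out, log2 fold changes ranged from -0.119 to 0.0543 for Ddx19a, -0.297 to 0.253 for Ddx26b, -0.00981 to 0.389 for Ddx28, -0.118 to 0.181 for Ddx39, -0.182 to 0.136 for Ddx3x, -0.158 to 0.112 for Ddx50 and -0.977 to 0.129 for Ddx60. The cause was not tested. The 12 members not described by their own fold change were not called under any alternative, and their signs are not reported here. Over the members, the median absolute log2 ratio between mice of the same genotype was 0.147 in KO and 0.179 in WT. The median absolute log2 fold change between genotypes was 0.21. The ratio within a genotype compares single libraries, while the fold change compares 2 libraries with 2 and so varies less. These values are therefore not directly comparable, and 2 libraries per genotype limit what can be shown.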
